A study of Mus musculus with 9 samples.

Results

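The genes described here carry the GABA system from synthesis to slow receptor signalling: Gad1, Gad2, Slc32a1, Slc6a11, Abat, Gabbr1 and Gabbr2. They were chosen by symbol, and all 7 were found among the 23420 symbols of a TPM table (a transcript abundance scaled by gene length and library size). RNA had been sequenced from neural stem cells of the hippocampus of 2-day-old wild type C57BL/6J mice. The cells were cultured and then placed in medium lacking bFGF and EGF, the growth factors that keep them dividing, so that they could differentiate. In that medium 3 libraries came from cells given 3 µM NAT, which the labels call a new small molecule, 3 from cells given 3 µM P7C3-A20, a carbazole compound that protects newborn neurons in rodents, and 3 from cells given the DMSO vehicle alone. Each trio is labelled as biological replicates with no word on separate cultures or mice, so the p-values reflect library-to-library spread, which may be technical. Whole reads recovered from the table came to 12994081 to 13803959 per NAT library, 15885313 to 17217584 per P7C3-A20 library and 12028821 to 14109316 per DMSO library.

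GABA is the main inhibitory transmitter of the adult forebrain and also acts on progenitors and newborn neurons in the hippocampus. The decarboxylases encoded by Gad1 and Gad2 make it from glutamate, and the vesicular transporter encoded by Slc32a1 loads it into synaptic vesicles. Slc6a11 encodes GAT3, a plasma membrane carrier that in brain is mostly astrocytic and takes GABA up from outside the cell, and Abat encodes the mitochondrial transaminase that breaks it down. The metabotropic GABA-B receptor is an obligate pair of the GABBR1 subunit, which binds GABA, and the GABBR2 subunit, which brings it to the surface and couples to Gi and Go proteins.

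These genes stood far apart in level, with the uptake carrier at the top and the vesicular transporter near 0. On the per-length TPM scale, the mean over the 9 libraries was 988 TPM for Slc6a11, 303 for Abat, 215 for Gabbr1, 19.1 for Gabbr2, 13.2 for Gad1, 1.46 for Gad2 and 0.0539 for Slc32a1. The ranges over the 9 libraries of neighbours in that order did not touch, so each step of the order held in every library whatever the treatment. By mean level, Slc6a11 lay at the 99.2 percentile of the 13839 genes with at least 1 TPM in at least 3 libraries, Abat at 96.4 and Gabbr1 at 94.2, against 41.2 for Gabbr2, 32.3 for Gad1 and 5.9 for Gad2. Slc32a1 did not reach that minimum in any library and was left out of the tests, so 6 of the 7 genes were tested.

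**Figure D1:**
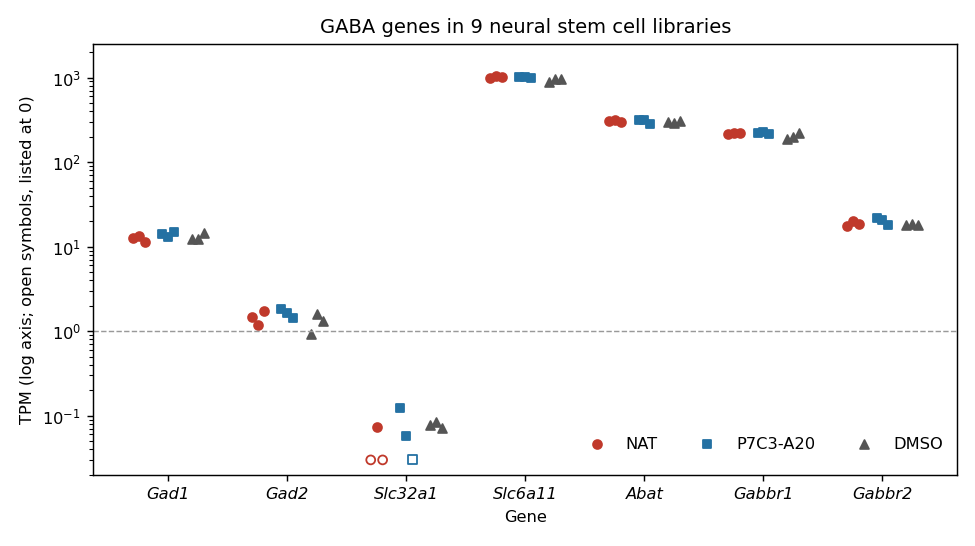
TPM of the 7 genes (horizontal axis) in each of the 9 libraries, on a log axis, with NAT as circles, P7C3-A20 as squares and DMSO as triangles. Open symbols at the foot mark libraries in which Slc32a1 was listed at 0, the dashed line is the minimum of 1 TPM, and the levels run between 0.0539 TPM on average for Slc32a1 and 988 TPM for Slc6a11.

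The start-site windows of the most and the least abundant of these genes are shown so that the sequence at both ends of that order can be seen; no binding or methylation was measured there. They are RefSeq sequences of build GRCm38.p6, 250 bases before to 50 bases after the annotated start, with each CG dinucleotide in capitals (a CG reads the same on both strands). The Slc6a11 window lies at chr6:114130991-114131290 on the plus strand and the Slc32a1 window at chr2:158610508-158610807, also on the plus strand.
Slc6a11: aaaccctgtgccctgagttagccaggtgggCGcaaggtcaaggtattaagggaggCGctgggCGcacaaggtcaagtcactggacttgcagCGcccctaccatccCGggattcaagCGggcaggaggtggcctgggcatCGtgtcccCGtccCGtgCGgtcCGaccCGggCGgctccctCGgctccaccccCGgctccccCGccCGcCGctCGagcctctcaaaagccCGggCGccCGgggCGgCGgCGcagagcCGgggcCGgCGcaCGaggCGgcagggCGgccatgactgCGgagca
Slc32a1: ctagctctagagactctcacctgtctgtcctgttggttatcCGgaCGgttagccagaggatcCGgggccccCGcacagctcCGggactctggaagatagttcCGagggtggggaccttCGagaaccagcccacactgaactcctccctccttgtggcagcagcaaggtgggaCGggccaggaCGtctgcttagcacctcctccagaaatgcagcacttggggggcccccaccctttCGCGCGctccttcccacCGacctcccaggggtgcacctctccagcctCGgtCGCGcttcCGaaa
The Slc6a11 window held 32 CG dinucleotides, a number reached by 9.2% of 27025 such windows, and the Slc32a1 window 17, reached by 31.9%. Of the others with a window in that table, Gabbr2 held 46 (1.6% of windows), Gad1 21, Gabbr1 18 and Gad2 14, so CG content did not follow the order of the levels: Gabbr1, at 215 TPM, held nearly the same number as the barely detected Slc32a1.

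Both decarboxylase genes were expressed, Gad1 about an order of magnitude above Gad2. Gad1, whose product makes most of the GABA of the cell body, had 12.7, 13.2 and 11.3 TPM under NAT, 14.1, 13.0 and 14.9 TPM under P7C3-A20 and 12.3, 12.4 and 14.7 TPM under DMSO. All groups overlapped: NAT replicate 3 was the lowest library, P7C3-A20 replicate 3 the highest, and DMSO replicates 1 and 2 lay below NAT replicates 1 and 2. Gad2, whose product is anchored to synaptic vesicles, had 1.49, 1.19 and 1.75 TPM under NAT, 1.85, 1.66 and 1.42 TPM under P7C3-A20 and 0.924, 1.58 and 1.31 TPM under DMSO. Its lowest library was DMSO replicate 1, and here too the groups overlapped. Those Gad2 values rest on 24 to 60 reads per library, for which counting error alone is about 15.4% of the value in a library, against 6.77% for Gad1 with 167 to 278 reads.

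The ratio of Gad1 to Gad2 was 8.53, 11.1 and 6.46 in the NAT libraries, 7.60, 7.83 and 10.5 in the P7C3-A20 libraries and 13.3, 7.88 and 11.2 in the DMSO libraries. The highest ratio belonged to the DMSO library with the fewest Gad2 reads, and the groups overlapped. Reads of Gad1 isoforms, including the embryonic forms that encode truncated proteins, cannot be separated in a table with a single value per gene.

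Slc32a1, which marks neurons that release GABA or glycine, was at the limit of detection. It had 0, 1 and 0 reads in the NAT libraries, 2, 1 and 0 in the P7C3-A20 libraries and 1, 1 and 1 in the DMSO libraries, and 3 reads would have been 0.172 to 0.250 TPM depending on the library. No fold is given, since every library lay below that floor; the floor covers counting error only. Of its 2797 exonic bases in the GENCODE annotation (GRCm38), 697 are shared with the antisense gene Gm14205, and the library kit is not stated to mark the strand, so the few reads could belong to either. No exon of another annotated gene overlapped those of the other 6 genes.

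Markers of GABAergic and other cells were read beside the decarboxylases and the vesicular transporter. The 24 interneuron markers (23 in the table) summed to 203 to 213 TPM with NAT, 205 to 213 with P7C3-A20 and 206 to 208 with DMSO. Nxph1 at 63.7 TPM and Reln at 35.5 TPM, on average over the 9 libraries, were the most abundant of them. Lhx6, the defining factor of interneurons from the medial ganglionic eminence, was listed at 0 in all 9 libraries, and 14 of the 24 reached 1 TPM in at least 3 libraries. The general neuron markers summed to 749 to 810.4 TPM over the 9 libraries and the glutamatergic ones to 33.3 to 36.1. Astrocyte and radial glia markers, a class that is also known to express Slc6a11 and Abat, summed to 26215 to 26556 TPM with NAT, 24847 to 26262 with P7C3-A20 and 26155 to 26854 with DMSO. Fabp7 alone averaged 11515 TPM of that sum over the 9 libraries. It was at -0.10 for NAT against DMSO and -0.16 for P7C3-A20 against DMSO (limma adjusted p = 0.403 and 0.158). Gene by gene, 10 of the 12 astrocyte and radial glia markers were positive for NAT against DMSO (median 0.07, 5 of 12 with an unadjusted p under 0.05), where 63.5% of all genes were positive and 11.7% under 0.05. For P7C3-A20 against DMSO 6 of 12 were positive (median -0.0006), against 55.2% of all genes. Oligodendrocyte lineage markers summed to 3512 to 3660.3 TPM with NAT, 3679 to 4241 with P7C3-A20 and 3673 to 3832 with DMSO, sums led by Olig1 and Olig2. Of their 11 tested genes, 10 were negative for NAT against DMSO (median -0.05), where 63.5% of all genes were positive. With P7C3-A20 against DMSO 10 were positive (median 0.08), against 55.2% of all genes. Between the compounds all 11 were lower with NAT (median -0.18), where 54.0% of all genes were higher. Of these, 8 had an unadjusted p under 0.05 (15.8% of all genes). Over the 9 libraries Olig1 (61.1% GC) was highest, at 2530.1 TPM, and Fabp7 (42.6% GC) lowest, at 10636 TPM, in P7C3-A20 replicate 3. That library had the steepest relation of level to GC content, given below (0.114 log2 per 10 percentage points). The part of these marker levels in the values of the 7 genes was not tested. Neural progenitor markers summed to 5268 to 5424 TPM over the 9 libraries and choroid plexus and ependyma markers to 17.1 to 25.1. Markers of microglia, of vessels and fibroblasts and of blood stayed under 10 TPM in sum, with Cx3cr1, C1qc, Trem2, Ctss, Cldn5, Cdh5, Lum, Hba-a1 and Hbb-b1 listed at 0. No tested marker was called by limma in any comparison. In these bulk samples more cells of a type and more RNA per cell cannot be told apart.

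Slc6a11 was the only gene of the 7 whose groups separated. It had 980.0, 1044 and 1017 TPM under NAT, 1021, 1030.3 and 996 TPM under P7C3-A20 and 886, 959.7 and 960.5 TPM under DMSO. All 6 compound libraries lay above all 3 DMSO libraries, and DMSO replicate 1 was the lowest. Its levels averaged 1014 ± 32.2 TPM with NAT, 1016 ± 17.6 TPM with P7C3-A20 and 935 ± 43.0 TPM with DMSO (SD, n = 3 each). The log2 fold change on the TPM + 1 scale was 0.12 ± 0.04 (SE) for NAT against DMSO, with a 95% interval of 0.03 to 0.20, an unadjusted p of 0.0127 and a limma adjusted p of 0.315. For P7C3-A20 against DMSO it was 0.12 ± 0.04, with an interval of 0.03 to 0.21, an unadjusted p of 0.0107 and a limma adjusted p of 0.195. These are fold changes of 1.08 and 1.09, and neither passed over all genes tested. Without DMSO replicate 1 both log2 values were 0.08. Astrocyte and radial glia markers, given above, were mostly positive for NAT against DMSO too. With P7C3-A20 against DMSO, 6 of 12 were positive and their median was -0.0006. The part of these markers in the Slc6a11 values was not tested. Such separation was frequent in these libraries: the NAT libraries lay wholly above the DMSO libraries for 14.1% of tested genes, the P7C3-A20 libraries for 13.1%, and all 6 compound libraries above all DMSO libraries for 4.31%. Both comparisons share the DMSO libraries.

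The relation of level to GC content differed between these libraries. Its slopes, in log2 per 10 percentage points of GC, were -0.0619 to 0.0072 with NAT, 0.0159 to 0.114 with P7C3-A20 and -0.0524 to -0.0065 with DMSO. All P7C3-A20 slopes lay above those of the other groups, so removing the trend may also remove part of a treatment difference. The GC trend and the treatment cannot be told apart here. With that trend removed, the log2 fold change of Slc6a11 was 0.06 (limma adjusted p = 0.548) for P7C3-A20 and 0.09 for NAT. A test on the recovered reads (limma-voom, chosen after seeing the data) did call it with P7C3-A20, at 0.14 ± 0.03 with an adjusted p of 0.0296, but not with the GC trend removed (0.06, adjusted p = 0.457). That call was also lost without DMSO replicate 1 (adjusted p = 0.268), DMSO replicate 2 (0.0879), P7C3-A20 replicate 2 (0.0936) or NAT replicate 3 (0.0541). Under voom Slc6a11 missed the threshold for NAT against DMSO (0.11, adjusted p = 0.212) and passed it without P7C3-A20 replicate 3 (0.0303).

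Abat, the catabolic enzyme, did not separate the groups. It had 304, 319 and 297 TPM under NAT, 314, 319 and 281 TPM under P7C3-A20 and 297, 290.4 and 306 TPM under DMSO. The lowest library was P7C3-A20 replicate 3 and the highest NAT replicate 2, with P7C3-A20 replicate 2 next to it. The log2 fold change was 0.04 ± 0.05 for NAT against DMSO (95% interval -0.06 to 0.15, limma adjusted p = 0.759) and 0.03 ± 0.05 for P7C3-A20 against DMSO (-0.08 to 0.14, adjusted p = 0.790). As folds, those intervals are 0.957 to 1.11 for NAT and 0.949 to 1.10 for P7C3-A20. The ratio of Slc6a11 to Abat was 3.22, 3.27 and 3.42 with NAT, 3.25, 3.23 and 3.55 with P7C3-A20 and 2.98, 3.31 and 3.14 with DMSO, with overlap between the groups.

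**Figure D2:**
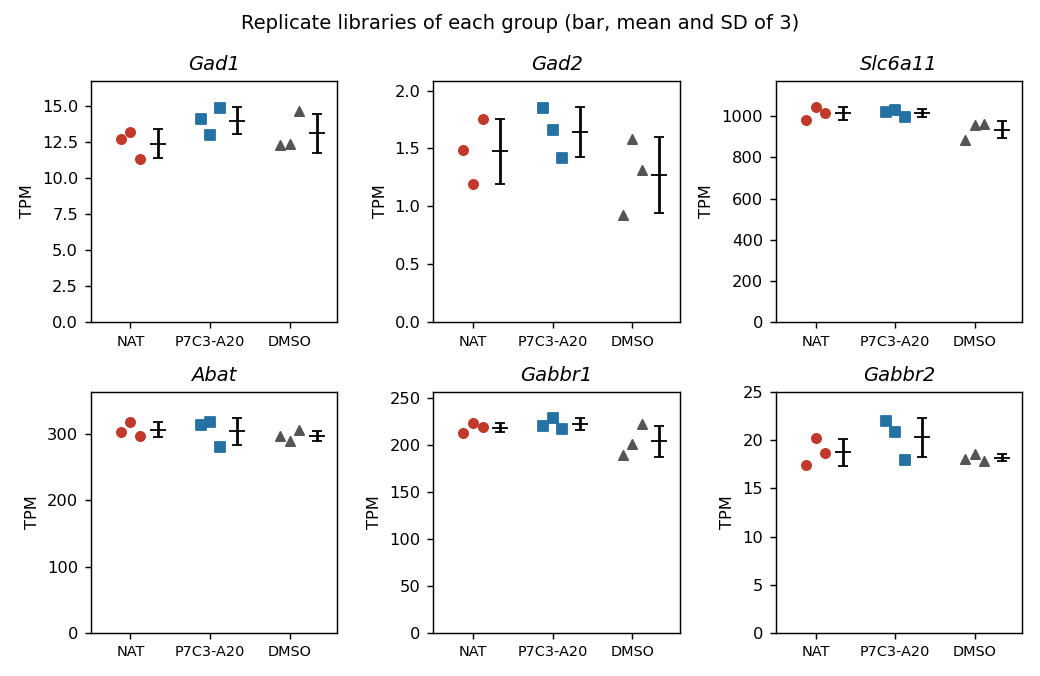
TPM of the 6 tested genes in each library (points), with the mean and SD of the 3 libraries of a group (bars), for NAT, P7C3-A20 and DMSO on linear axes that start at 0. Slc6a11 is the single panel in which the compound libraries, at 980.0 TPM or more, all lie above the DMSO libraries, at 960.5 TPM or less.

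The receptor subunits were unequal in level, Gabbr1 about 10.0 to 12.4 times Gabbr2 in every library. Gabbr1 had 213, 223 and 219 TPM under NAT, 220.1, 229 and 217 TPM under P7C3-A20 and 189.6, 200.4 and 222 TPM under DMSO. The compound libraries clustered tightly, while DMSO replicate 3 reached their level and DMSO replicates 1 and 2 lay below them. The log2 fold change was 0.10 ± 0.05 for NAT against DMSO (95% interval -0.01 to 0.21, unadjusted p = 0.0815, limma adjusted p = 0.473) and 0.13 ± 0.05 for P7C3-A20 against DMSO (0.01 to 0.24, unadjusted p = 0.0328, adjusted p = 0.273). With the GC trend removed the P7C3-A20 value was 0.08, and with a DMSO library left out it was 0.07 (replicate 1), 0.11 (replicate 2) or 0.19 (replicate 3).

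Gabbr2 had 17.4, 20.2 and 18.7 TPM under NAT, 22.0, 20.9 and 18.0 TPM under P7C3-A20 and 18.1, 18.6 and 17.9 TPM under DMSO. P7C3-A20 replicates 1 and 2 were the highest of all, while P7C3-A20 replicate 3 lay among the DMSO libraries. The log2 fold change was 0.04 ± 0.08 for NAT against DMSO (limma adjusted p = 0.882) and 0.14 ± 0.08 for P7C3-A20 against DMSO (adjusted p = 0.394, and 0.06 with the GC trend removed). The P7C3-A20 value was 0.22 without P7C3-A20 replicate 3 and 0.09 without P7C3-A20 replicate 1. The ratio of Gabbr1 to Gabbr2 averaged 11.7 ± 0.594 with NAT, 11.0 ± 1.03 with P7C3-A20 and 11.2 ± 1.04 with DMSO (SD, n = 3 each), with overlap between all groups.

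Across the whole set, none of the 6 tested genes passed in any comparison by limma. For NAT against DMSO, 0 of 6 were called, where 0.0289% of all tested genes were. In the same comparison 1 of 6 had an unadjusted p under 0.05 (11.7% of all genes), 5 of 6 were positive (63.5% of all genes) and the median log2 fold change was 0.07 against 0.03 for all genes. For P7C3-A20 against DMSO, 0 of 6 were called by limma (0.0217% of all genes) and 1 by voom (3.38% of all genes). Unadjusted, 2 of 6 were under 0.05 (15.9% of all genes), all 6 were positive (55.2% of all genes) and the median was 0.12 against 0.01. With the GC trend removed all 6 were still positive, between 0.01 and 0.26, where the median of all genes in that fit was -0.001. Gad1 and Gad2 complete the set: for NAT against DMSO they were at -0.07 ± 0.09 (95% interval -0.27 to 0.12) and 0.13 ± 0.16 (-0.23 to 0.49), and for P7C3-A20 against DMSO at 0.09 ± 0.09 (-0.10 to 0.28) and 0.23 ± 0.16 (-0.13 to 0.59), with limma adjusted p-values of 0.519 to 0.782. The Gad2 fold changes understate the change in TPM, since the level is close to the added 1: the ratio of its means was 1.16 for NAT over DMSO and 1.29 for P7C3-A20 over DMSO. Without DMSO replicate 1 the log2 fold changes of Gad2 against DMSO fell to 0.02 for NAT and 0.11 for P7C3-A20.

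At the same dose of 3 µM, no difference between NAT and P7C3-A20 passed for these genes. By limma 0 of 6 were called with none at an unadjusted p under 0.05, where 0 of 13839 genes were called (0%) and 15.8% had an unadjusted p under 0.05; voom called 254 genes (1.84%), none of them among these. No gene of the 7 had NAT and P7C3-A20 libraries that did not overlap, against 21.7% of tested genes. NAT was lower for 5 of 6, where 54.0% of all genes were higher, with a median of -0.06 against 0.01. Gad1 was farthest apart, at -0.16 ± 0.09 (95% interval -0.36 to 0.03, limma adjusted p = 0.389), and Slc6a11 nearest, at -0.004 ± 0.04 (-0.09 to 0.08, adjusted p = 0.970). The intervals were -0.46 to 0.26 for Gad2, -0.09 to 0.12 for Abat, -0.14 to 0.09 for Gabbr1 and -0.28 to 0.07 for Gabbr2, and differences within these intervals are not excluded by the data.

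**Figure D3:**
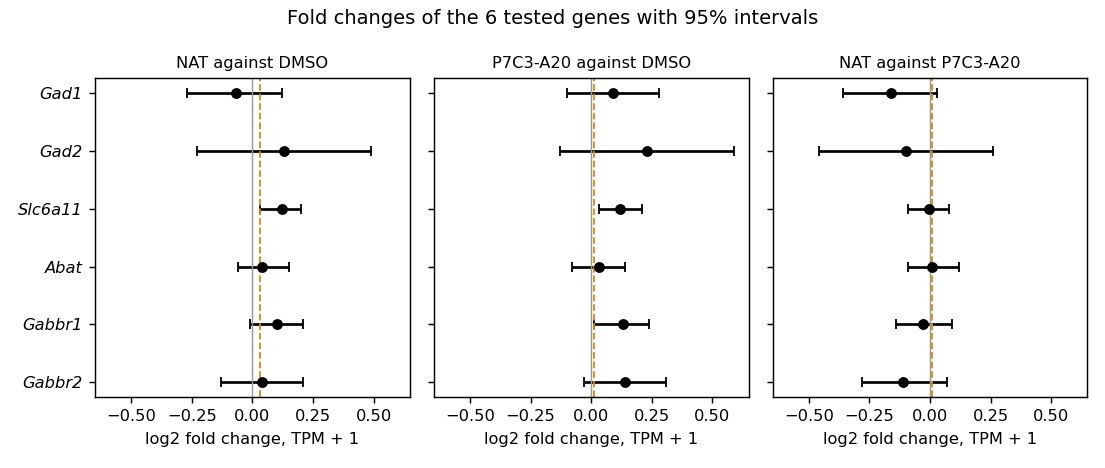
Log2 fold changes of the 6 tested genes (points) on the TPM + 1 scale with 95% intervals (bars), in 3 panels (each compound against DMSO, then NAT against P7C3-A20); the solid line is 0 and the dashed line the median of all tested genes. The interval of Slc6a11 lies above 0 in both comparisons with DMSO, that of Gabbr1 in the P7C3-A20 one, and Gad2 has the widest intervals.

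The rest of the GABA pathway was read through 6 lists with 86 genes, of which 84 were in the table and 64 were tested. None of the 64 was called by limma in any of the 3 comparisons, while 11 had an unadjusted p under 0.05 when NAT was set against DMSO, 15 when P7C3-A20 was, and 8 between the compounds. Over all tested genes those shares were 11.7%, 15.9% and 15.8%. Their median log2 fold changes were 0.06, 0.02 and 0.01 in that order, against 0.03, 0.01 and 0.01 for all genes.

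Of the 19 subunits of GABA-A receptors, the chloride channels of fast inhibition, 8 were tested and Gabra6 was listed at 0. The gamma subunit gene Gabrg1 averaged 57.6 ± 1.81 TPM under NAT, 51.5 ± 4.66 TPM under P7C3-A20 and 53.7 ± 2.24 TPM under DMSO (SD, n = 3 each). On this per-length scale its level lay between those of Gabbr1 and Gabbr2. For NAT against P7C3-A20 the subunits had 7 of 8 positive (54.0% of all genes) and a median of 0.12, with Gabrg1 at 0.16 ± 0.06 (limma adjusted p = 0.264).

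The list of other transport and breakdown genes had 6 of 9 tested, with medians of 0.06 for NAT against DMSO and 0.05 for P7C3-A20 against DMSO. It includes Aldh5a1, which encodes succinic semialdehyde dehydrogenase, the step after the Abat transaminase, at 79.0 ± 2.66 TPM with NAT, 75.4 ± 3.45 TPM with P7C3-A20 and 73.9 ± 1.79 TPM with DMSO. Among the partners and effectors of GABA-B receptors 20 of 24 were tested, led by the inhibitory G protein gene Gnai2, at 967 ± 30.6 TPM with NAT, 1000.2 ± 41.4 TPM with P7C3-A20 and 923 ± 17.1 TPM with DMSO, and the beta subunit gene Gnb2. Gnai2 was at 0.12 ± 0.04 for P7C3-A20 against DMSO (limma adjusted p = 0.196). There this list had 6 genes with an unadjusted p under 0.05, which went in both directions, from -0.37 to 0.44. It had 12 of 20 positive and a median of 0.03, where 15.9% of all genes were under 0.05 and 55.2% positive.

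Inhibitory synapse scaffold and trafficking genes (14 of 17 tested, led by Gabarap and Gabarapl1) had medians of 0.05 for NAT against DMSO and -0.02 for P7C3-A20 against DMSO. Chloride transport genes, which set the direction of GABA-A currents, were all tested. All 7 were positive for NAT against DMSO (63.5% of all genes), with a median of 0.12 against 0.03 for all genes. Of them 2 had an unadjusted p under 0.05 (11.7% of all genes). The same genes had 3 of 7 positive for P7C3-A20 against DMSO (55.2% of all genes) and a median of -0.02 against 0.01. Their most abundant genes were the kinase gene Wnk1, at 129 ± 0.953 TPM with NAT, 116 ± 4.98 TPM with P7C3-A20 and 119 ± 1.89 TPM with DMSO, and the chloride importer gene Slc12a2, at 43.2 ± 0.324, 39.7 ± 1.87 and 41.4 ± 0.463 TPM. Wnk1 had a log2 fold change of 0.15 ± 0.04 for NAT against P7C3-A20, with a limma adjusted p of 0.171. Related decarboxylases and glutamate supply genes (9 of 10 tested, led by Glud1 and Glul) had medians of 0.06 for NAT against DMSO and 0.10 for P7C3-A20 against DMSO.

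**Figure D4:**
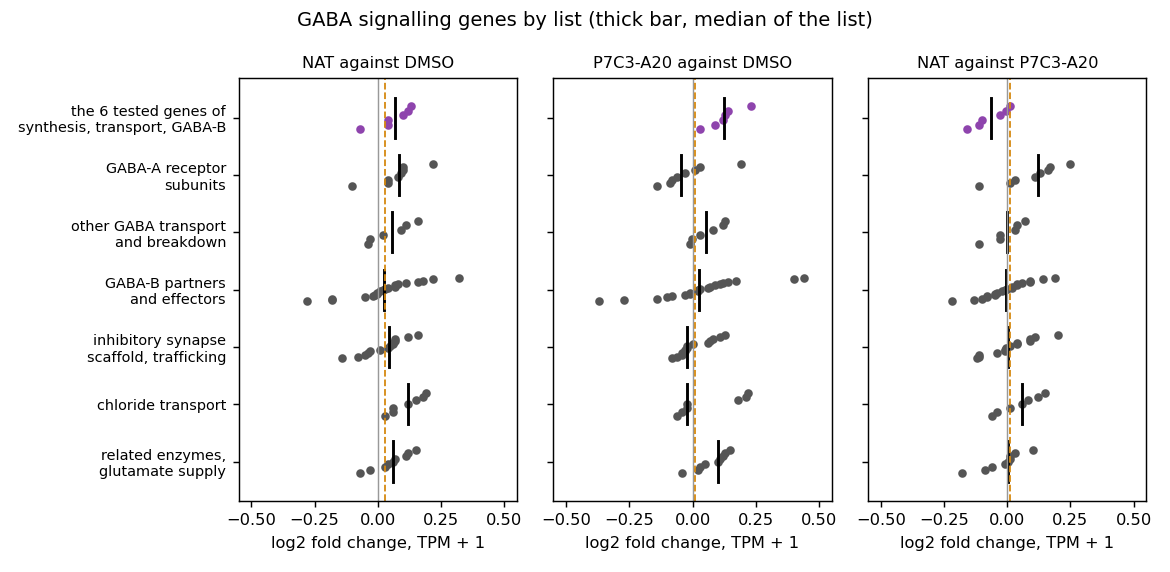
Log2 fold changes on the TPM + 1 scale of the 6 tested synthesis, transport and GABA-B genes (top row) and of the 64 tested genes of the 6 pathway lists (1 point per gene), with thick bars at list medians, a solid line at 0 and a dashed line at the median of all tested genes. The points of every list straddle or lie near 0; the widest spread, -0.37 to 0.44, is among GABA-B partners for P7C3-A20 against DMSO.

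How the genes varied from library to library was described by the Pearson correlation of log2(TPM + 1) over the 9 libraries, which share depth, composition and group differences, so these values carry no p. Among the tested genes of the set, Slc6a11 and Gabbr1 ran closest together (r = 0.87), and Gad1 and Gad2 did not run together (r = -0.04). Over all tested genes, the patterns most like each gene were Acsf2 (0.977) for Slc6a11, Mid1ip1 (0.971) and Prrt2 (0.957) for Gabbr1, Map2k1 (0.972) and Pygb (0.963) for Abat, and Swap70 (0.966) and Ptpn22 (0.944) for Gad2. For Gad1 they were Snf8 (0.943) and Gjd2 (0.939), and for Gabbr2 Dnmt3b (0.927) and Radil (0.917). A correlation of at least 0.90 was reached by 97 genes for Slc6a11 and 68 for Gabbr1, against 15 for Gad1, 19 for Abat, 7 for Gad2 and 3 for Gabbr2.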

How the data were processed

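The deposited table gives TPM for 23420 symbols in 9 libraries, and every column sums to 1000000, as TPM, reads divided by gene length and scaled per library, should; which lengths the authors used is not stated. Bowtie 0.12.2 and builds mm8 and mm9 appear, with no role, in the submitters' processing notes; counter, annotation and filters: not given in the sources used here. Per the labels' protocols the kit was Illumina TruSeq RNA. Whole reads were recovered from the steps of the TPM for all 19302 genes with any value (tolerance 0.001; in simulated data for 2945 genes 99.6% were exact).

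Groups were compared with limma-trend (limma 3.58.1, R 4.3.3) on log2(TPM + 1) over 13839 genes with at least 1 TPM in at least 3 libraries, in 1 fit of all 9 libraries with the group as the only factor (leaving 6 residual degrees of freedom), two-sided, Benjamini-Hochberg adjusted over all genes tested and called under 0.05; the fit was tested on simulated data. Figures were drawn with matplotlib 3.10.9, and tables handled in pandas 2.3.3 and numpy 2.4.6 under Python 3.11.15. GC content was that of the longest GENCODE transcript (GRCm38), found for 98.4% of symbols. The genes, lists, tests and named genes (all 7, the 2 most abundant of each pathway list and any called, the 2 most alike patterns) were chosen with earlier results of these data known. Some genes that this rule names are not reported here. Alternatives were robust empirical Bayes, quantile normalization, a block for the replicate number, no filter, a minimum of 5 TPM, a pseudocount of 0.1, GC trend removal (spline, 5 degrees of freedom), the 6 compared libraries alone, each library left out and, chosen after seeing the data, limma-voom on recovered reads, also with GC removal or a library left out. edgeR and TMM scaling were planned for recovered reads but not run, because the table holds TPM.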

Additional observations from a re-analysis of the deposited data

How the results depend on the processing

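None of the 6 tested genes was called under any alternative on the TPM themselves, in any of the 3 comparisons. With voom on recovered reads, 1 was called for P7C3-A20 against DMSO (Slc6a11); with a library left out voom called 0 to 2 there and 0 to 1 for NAT against DMSO. The second was Gabbr1, without P7C3-A20 replicate 3 or DMSO replicate 3 (adjusted p 0.0482 and 0.00609), and the NAT call was Slc6a11 without P7C3-A20 replicate 3 (0.0303). With GC removal voom called 0. The cause was not tested.

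Of 501 values of single genes under alternatives, 473 kept their direction and side of the threshold, 9 passed it, all under voom, and 19 changed sign, all within 0.06 of 0. The log2 fold changes that changed sign were as follows. For NAT against DMSO, Gabbr2 was at -0.01 without NAT replicate 2 (-0.03 under voom; up to 0.09 without another library) and Gad1 at 0.004 without DMSO replicate 3 (down to -0.12, or -0.14 under voom, without another). For P7C3-A20 against DMSO, Abat was at -0.003 without P7C3-A20 replicate 2 (up to 0.09 without another). For NAT against P7C3-A20, Slc6a11 was at 0.03 with quantile normalization, GC removal or voom with GC removal, and at 0.0001 to 0.02 without NAT replicate 1 (0.02), P7C3-A20 replicate 1 or P7C3-A20 replicate 2 (0.01). There Abat was at -0.02 without NAT replicate 2, -0.04 without P7C3-A20 replicate 3 (up to 0.05 without another) and -0.01 under voom, where leaving out a library gave -0.06 to 0.02 (-0.05 without NAT replicate 2, -0.004 without NAT replicate 1).

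Over all genes, limma called 4, 3 and 0 for NAT against DMSO, P7C3-A20 against DMSO and NAT against P7C3-A20. With a library left out these were 0 to 8, 1 to 4 and 0 to 2, with voom 36, 468 and 254 (with a library left out 4 to 289, 0 to 873 and 4 to 726), with voom and GC removal 52, 34 and 61, with a minimum of 5 TPM 2, 0 and 0, with a pseudocount of 0.1 1, 0 and 0, and with the compared libraries alone 8, 5 and 5. With the replicate number as a block, 0 of the 6 genes were called in each comparison and 3, 7 and 1 over all genes. The deviations of same-numbered libraries from their group means had correlations of -0.062 to 0.067, against -0.09 to 0.099 for differently numbered ones. No pairing by number was visible, though such correlations cannot exclude a shared culture or day. At 24 to 60 reads a library, Gad2 is limited by depth, and Slc32a1, at 0 to 2 reads, is not measurable.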
